A study of Mus musculus with 14 samples.

Results

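The genes described here are Hcn2, Hcn3 and Hcn4, 3 of the 21938 protein-coding genes measured, which were taken by name from the hyperpolarization-activated cyclic nucleotide-gated (HCN) channel family. Their H3K27me3 was followed through the maturation of the mouse cerebellum in 9 peak lists from chromatin immunoprecipitation and sequencing (ChIP-seq), with 3 libraries per age from C57BL/6NCrl mice, at 7 (P7), 14 (P14) or 60 (P60) days after birth. Neither the labels nor the methods name an engineered allele or a treatment for these animals. Both sexes were used, and a P60 library came from 1 mouse whereas the younger libraries pooled several, so pool size and stage cannot be told apart. The tissue was cerebellum, in which a peak can come from any of the cell types present, and fewer cells that carry a mark cannot be told apart from less of the mark per cell. In the same lists, 4 of 6 granule neuron markers (Gabra6, Cbln3, Zic1 and Etv1) had no H3K27me3 peak at a TSS in any library. All 6 inhibitory interneuron markers had one in 2 or more. None was found at 3 of 5 microglia and 1 of 6 Purkinje cell markers. The same held for 2 of 6 oligodendrocyte lineage and 2 of 5 astrocyte and Bergmann glia markers. Of all 21938 genes, 6720 had one in 1 or more libraries and 5120 in 2 or more. These counts name no cell type as the source of a peak.

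HCN channels open when the membrane becomes more negative and pass an inward cation current that helps to set the resting potential and rhythmic firing of neurons and of the heart's pacemaker cells. The channel subunits assemble as tetramers, and cyclic AMP binding to their intracellular end makes opening easier. H3K27me3 is placed by Polycomb repressive complex PRC2, is removed by demethylases such as KDM6B, and is found at the promoters of silenced genes, often over stretches rich in CpG dinucleotides. In the cerebellum, HCN currents are known from Purkinje cells, interneurons and neurons of the deep nuclei.

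Peaks were listed over or on both sides of the start of Hcn2 in the P7 libraries only, and on both sides of the start of Hcn4 in all P7 libraries and 2 of 3 P14 libraries. No peak was listed at Hcn2, Hcn3 or Hcn4 in any of the 3 P60 libraries. The DNA in question is shown first, to let the marked and unmarked stretches be compared. All positions are on GRCm38, the RefSeq starts and 5′ bases are from the RefSeq promoter table for GRCm38.p6, and CpG dinucleotides are in capitals. That table was matched for 2 of the 3 genes, Hcn2 and Hcn4, and no entry was matched for Hcn3.
Hcn2, 250 bases before the start, chr10:79716384-79716633, plus strand: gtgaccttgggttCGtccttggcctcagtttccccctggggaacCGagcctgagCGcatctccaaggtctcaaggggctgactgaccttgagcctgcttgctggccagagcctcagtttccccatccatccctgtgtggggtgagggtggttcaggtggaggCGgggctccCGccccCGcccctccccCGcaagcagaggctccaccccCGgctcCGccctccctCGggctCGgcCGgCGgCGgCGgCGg
Hcn4, 250 bases before the RefSeq start, chr9:58822699-58822948, plus strand: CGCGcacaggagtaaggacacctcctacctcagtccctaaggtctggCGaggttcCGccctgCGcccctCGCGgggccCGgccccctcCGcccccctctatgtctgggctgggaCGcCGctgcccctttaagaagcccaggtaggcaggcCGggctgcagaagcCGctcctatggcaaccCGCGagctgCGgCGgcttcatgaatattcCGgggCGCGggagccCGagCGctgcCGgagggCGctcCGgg
Hcn4, first 300 bases of the coding stretch under a peak in all 5 marked libraries, chr9:58823711-58824010, plus strand: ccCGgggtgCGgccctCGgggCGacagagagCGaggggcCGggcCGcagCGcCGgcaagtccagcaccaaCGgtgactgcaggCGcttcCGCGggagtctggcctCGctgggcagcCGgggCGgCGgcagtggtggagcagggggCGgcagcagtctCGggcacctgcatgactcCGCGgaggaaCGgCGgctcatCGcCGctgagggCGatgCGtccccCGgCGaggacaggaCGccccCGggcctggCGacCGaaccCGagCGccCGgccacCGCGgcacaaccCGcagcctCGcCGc

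The 250 bases before Hcn2 were wholly under a peak in P7 replicates 1 and 3, and 133 of them were under a peak in P7 replicate 2. The 250 bases before Hcn4 were under no peak in any of the 9 libraries, although peaks flanked them on both sides. Both stretches were rich in CpG, with 16 dinucleotides at Hcn2 and 25 at Hcn4, against a median of 6 over the same 250 bases of 32851 RefSeq promoters. Of all these promoters, 74.6% held fewer CpG than Hcn2 and 89.3% fewer than Hcn4.

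Hcn2 encodes a channel subunit found widely in the brain, of which cyclic AMP speeds the opening. The gene (ENSMUSG00000020331.9) spans chr10:79716634-79736108 on the plus strand, with 1 annotated start. Promoter coverage, the percent of the window of 3 kb on each side of a transcription start site (TSS) that lies under peaks, was 40.6%, 24.2% and 30.4% in P7 replicates 1, 2 and 3. It was 0% in all 3 P14 and all 3 P60 libraries. The P7 values therefore did not overlap those of either later stage. The mean fell from 31.8% ± 8.28 (SD, n = 3) at P7 to 0% at P14, a change of -31.8 percentage points (SE 4.64, limma, Benjamini-Hochberg adjusted p = 0.00272). The same change held from P7 to P60 (limma, adjusted p = 0.000849), and P14 and P60 could not be told apart, with all 6 libraries at 0. Hcn2 entered the test, which needs a peak in 2 or more of the 9 libraries, through its P7 libraries alone. Because the later libraries held no peak, the spread seen at this gene came from the P7 libraries alone. With peaks under a −log10 q of 4 dropped, the change was -19.1 points and both calls were lost (limma, adjusted p = 0.213 from P7 to P14 and 0.157 from P7 to P60). The P7 to P60 call was also lost when P60 replicates 1 and 2, which had narrow peaks, were left out. The change was then still -31.8 points, with a lone P60 library left.

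The Hcn2 peaks found in all 3 P7 libraries lay over or beside the start. In P7 replicate 1 a single peak ran from 465 bases before the start to 1972 bases after it (chr10:79716169-79718606, fold enrichment 3.05, −log10 q 5.54). In P7 replicate 3 the peak ran from 383 bases before to 1440 bases after the start (fold enrichment 3.12, −log10 q 2.74). P7 replicate 2 had a pair of peaks in the same place, from 574 to 118 bases before the start and from 422 to 1418 bases after it, with a space between them that held the start. The annotation places these peaks over upstream sequence, the first exon with its short 5′ UTR, and the first part of the first intron. All 3 P7 lists shared 266 bases upstream of the start and 997 bases downstream, the latter made of 164 coding bases of exon 1 and 833 intronic bases. Peaks of 454 bases in an intron and of 678 bases over the last exon, with part of its 3′ UTR, were listed in P7 replicate 1 alone.

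Hcn4 encodes the slow, strongly cyclic AMP-sensitive subunit best known from the pacemaker cells of the heart. The gene (ENSMUSG00000032338.9) spans chr9:58823412-58863175 on the plus strand in GENCODE, with 1 annotated start, and the RefSeq start lies 463 bases upstream of it. Promoter coverage was 39.4%, 37.3% and 25.6% in P7 replicates 1, 2 and 3. At P14 it was 0%, 13.7% and 15.8% in replicates 1, 2 and 3, and at P60 it was 0% in all 3 libraries. The lowest P7 library was above the highest P14 library, while P14 and P60 overlapped at 0 through P14 replicate 1. How many of the promoters tested had such a gap between P7 and P14 was not counted. The mean fell from 34.1% ± 7.45 (SD, n = 3) at P7 to 9.83% ± 8.57 (SD, n = 3) at P14 (-24.3 points, SE 5.51, limma, adjusted p = 0.0194). From P7 to P60 it fell by 34.1 points (SE 5.51, limma, adjusted p = 0.00117). The step from P14 to P60, -9.83 points, did not pass the test (limma, adjusted p = 0.292). The P7 to P14 call was lost with a 1 kb window (adjusted p = 0.128, limma), on an arcsine square root scale (adjusted p = 0.0553), with peaks of −log10 q of 2 or more (adjusted p = 0.093) and without P14 replicate 2 (adjusted p = 0.0536), so it rests near the threshold. The P7 to P60 call was lost without P60 replicates 1 and 2 (limma, adjusted p = 0.0843), and with peaks of −log10 q of 4 or more Hcn4 was touched in too few libraries to be tested.

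All 5 libraries with a peak at Hcn4 had it in the same form, as a pair of peaks with an open space between them. The upstream peak lay between 2026 and 955 bases before the GENCODE start over all libraries, outside the gene. The downstream peak lay between 30 bases before and 1575 bases after that start, over exon 1 and the start of intron 1. The 924 bases between them, chr9:58822458-58823381, were under no peak in any library and held the RefSeq start. That space held 113 CpG per kb (72.3% GC), against 36.4 per kb under the upstream peaks and 67.2 per kb under the downstream peaks. The stretch common to all 5 libraries on the upstream side was 38 bases, from 1253 to 1216 bases before the GENCODE start:
Hcn4, upstream stretch shared by all 5 marked libraries, chr9:58822159-58822196, plus strand: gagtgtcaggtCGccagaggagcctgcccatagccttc
The stretch common to all 5 on the downstream side was 500 bases, chr9:58823711-58824210, all of it coding sequence of exon 1, with 118 CpG per kb. The downstream peak measured 500 and 664 bases in P14 replicates 2 and 3, against 1402, 1426 and 1221 bases in the P7 replicates, with no overlap between the stages. The upstream peak measured 324 and 282 bases at P14 and 963, 811 and 314 bases at P7, which do overlap. The right edge of the downstream peak lay 798 and 821 bases after the start at P14 and between 1381 and 1575 bases after it at P7. Fold enrichment of the downstream peak was 3.08 and 2.72 at P14 and 2.45, 2.59 and 2.58 at P7, a value set within each library and not compared between them by a test. P7 replicate 1 alone also listed a peak of 757 bases over the last exon, almost all of it coding (fold enrichment 4.25, −log10 q 3.69).

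**Figure D1:**
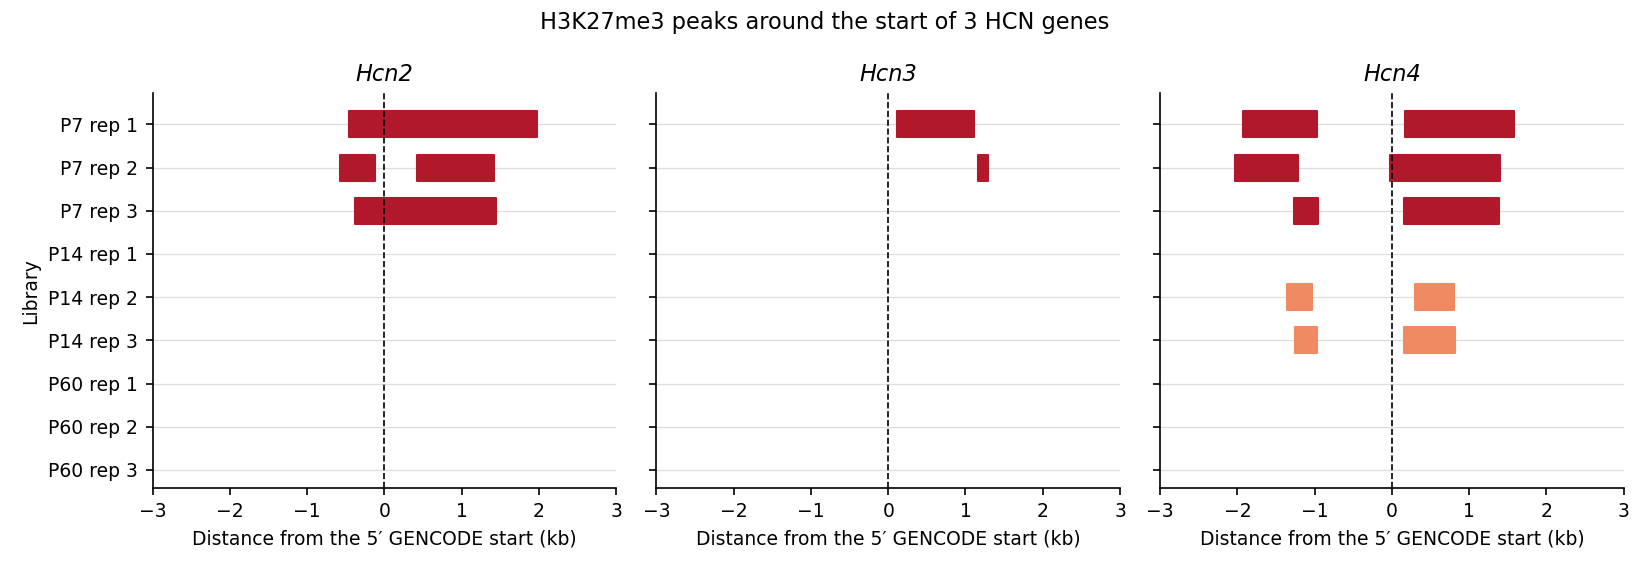
H3K27me3 peaks within 3 kb of the 5′ GENCODE start (dashed line) of each gene, in the direction of transcription, with 1 row per library and bars from peak start to peak end, coloured by stage. Hcn2 bars cross or flank the start in the 3 P7 rows only, Hcn3 has bars in 2 P7 rows, and Hcn4 has a pair of bars with an open space in the 3 P7 rows and 2 P14 rows.

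Hcn3 encodes a subunit whose opening is little affected by cyclic AMP. The gene (ENSMUSG00000028051.10) spans chr3:89146074-89160196 on the minus strand and has 4 annotated starts, of which the most covered window was used in each library. Promoter coverage was 16.5%, 2.13% and 0% in P7 replicates 1, 2 and 3, and 0% in all 6 later libraries. The P7 values overlapped the later ones through replicate 3. The change of -6.22 points (SE 3.49) passed neither from P7 to P14 (limma, adjusted p = 0.238) nor from P7 to P60 (limma, adjusted p = 0.156). Without P7 replicate 3 the P7 to P60 change was -9.33 points (limma, adjusted p = 0.0499). Without P7 replicate 1 or P7 replicate 2, Hcn3 had a peak in too few libraries to be tested. The outcome thus depended on which P7 library was left out. The P7 peaks of replicates 1 and 2 did not overlap each other. The first covered 992 bases, from 120 to 1111 bases after the 5′ start, over exon 1 and intron 1, with a −log10 q of 1.22. The other covered 128 intronic bases with a −log10 q of 1.67, and no peak in that list was narrower. Only 3.72% and 31.2% of the peaks in their lists had a lower −log10 q.

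**Figure D2:**
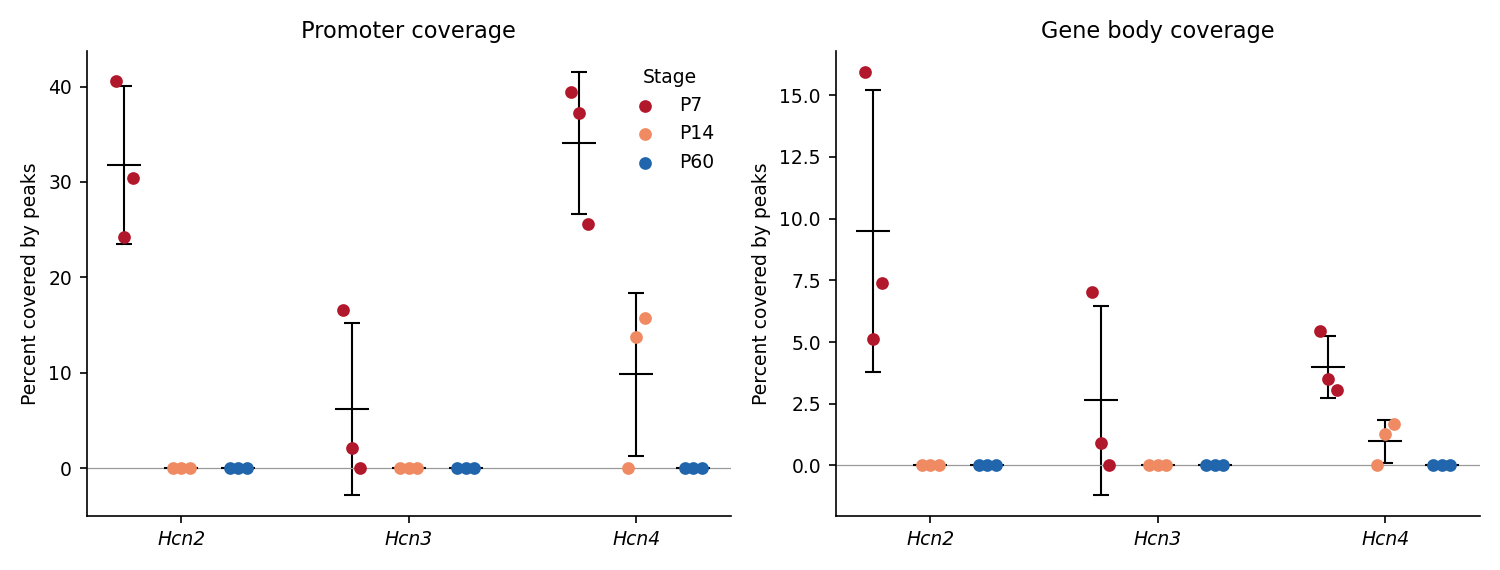
Percent of the promoter window (left) and of the gene body (right) covered by peaks, with 1 point per library, coloured by stage, and bars for the mean and SD (n = 3). Hcn2 points lie above 0 at P7 only, Hcn4 points at P7 lie between 25.6% and 39.4% of the promoter window and above all P14 points, and Hcn3 has a P7 point at 0.

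Coverage of the whole gene body was lower than promoter coverage at each gene, and its P7 mean was highest at Hcn2. For Hcn2 it was 15.9%, 5.12% and 7.40% at P7 and 0% at every later library. For Hcn4 it was 5.43%, 3.51% and 3.07% at P7, then 0%, 1.26% and 1.67% at P14, and 0% at P60. For Hcn3 it was 7.02%, 0.906% and 0% at P7 and 0% later. In both Hcn2 and Hcn4 the P7 libraries lay above all later ones. The share of all genes tested with such a gap was not counted. Except in P7 replicate 1, all gene body coverage of the 3 genes came from peaks that also lay in their promoter windows. Gene body coverage is therefore not a measure independent of promoter coverage. From P7 to P60, gene body coverage fell by 9.49 points at Hcn2 (SE 2.52, limma, adjusted p = 0.0307) and by 4.004 points at Hcn4 (SE 0.814, limma, adjusted p = 0.0132), and the change of -2.64 points at Hcn3 did not pass (limma, adjusted p = 0.252). No member passed from P7 to P14, with adjusted p of 0.0724 at Hcn2, 0.0729 at Hcn4 and 0.374 at Hcn3 (limma), or from P14 to P60. The P7 to P60 calls were lost without P60 replicate 1, with adjusted p of 0.0879 at Hcn2 and 0.050004 at Hcn4, and without P60 replicate 2, with 0.0915 and 0.0545 (limma). At Hcn2 the call was also lost without P60 replicate 3 (adjusted p = 0.0629) and without P14 replicate 2 (adjusted p = 0.0512, limma).

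Across the 3 stages at once, an exact two-sided permutation test over all 1680 arrangements of the 9 libraries gave p = 0.0357 for Hcn2, 0.0143 for Hcn4 and 0.25 for Hcn3, the same for promoter and gene body. The smallest p this design allows is 0.00357 where no values are tied, and these 6 tests are given without adjustment. Libraries tied at 0 raise that limit. Each p given here is the smallest its own values allow, so Hcn3 could not go below 0.25 with these 9 libraries. The match between promoter and gene body follows from which libraries were at 0 and is not a second result. Of the fall in mean promoter coverage from P7 to P60, 71.2% was present by P14 at Hcn4, against 100% at Hcn2. Whether the genes differ in this was compared within libraries. Hcn4 coverage minus Hcn2 coverage was -1.22, 13.0 and -4.82 points in the P7 libraries and 0, 13.7 and 15.8 points in the P14 libraries, which overlap (exact permutation test, two-sided, p = 0.2, where 0.1 is the smallest p possible). With 3 libraries against 3 this test cannot reach 0.05, so a difference in timing between Hcn2 and Hcn4 is neither shown nor excluded.

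Calls of lower coverage were common among the promoters tested, and the HCN genes are read against that background. All 3 passed the filter for testing, a peak in 2 or more of the 9 libraries, and Hcn2 and Hcn3 did so through P7 libraries alone. From P7 to P14, 11.7% of the 5120 genes tested were called lower, and 2 of the 3 HCN genes were. From P7 to P60, 45.8% of all genes tested were called lower, and the same 2 of 3 HCN genes were. From P14 to P60, 2.07% of genes were called lower and no HCN gene was. For the gene body, 5.9% of 6104 genes were called lower from P7 to P14 with no HCN gene, 0.59% from P14 to P60 with none, and 26.3% from P7 to P60 with Hcn2 and Hcn4. A peak in all 3 P7 and no P60 library was found at 24.7% of promoters tested, Hcn2 and Hcn4 among them, and a peak in all 3 P7 and no P14 library at 6.7%, Hcn2 among them.

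By size, Hcn2 and Hcn4 stood high in P7 promoter coverage and in its fall. Their P7 means exceeded those of 83.8% and 87% of the genes tested, whereas Hcn3 exceeded 29%. From P7 to P14, only 1.11% of genes fell by more than Hcn2 and 4.2% by more than Hcn4, while the median change over all genes was -5.73 points. From P7 to P60 the shares were 10.9% and 8.61%, with a median change of -12 points. Neither gene had a peak at P60, so each P7 to P60 fall equals the P7 mean and is not a separate result. For Hcn2, which had no peak at P14, the same holds from P7 to P14. The median change of the 3 HCN genes was -24.3 points from P7 to P14 and -31.8 points from P7 to P60. The change at Hcn3 was near the middle of the P7 to P14 distribution, with 47.5% of genes falling further. For the gene body, 8.65% of genes fell further than Hcn2 and 22.4% further than Hcn4 from P7 to P14. From P7 to P60 these gene body shares were 17.2% and 28.7%.

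**Figure D3:**
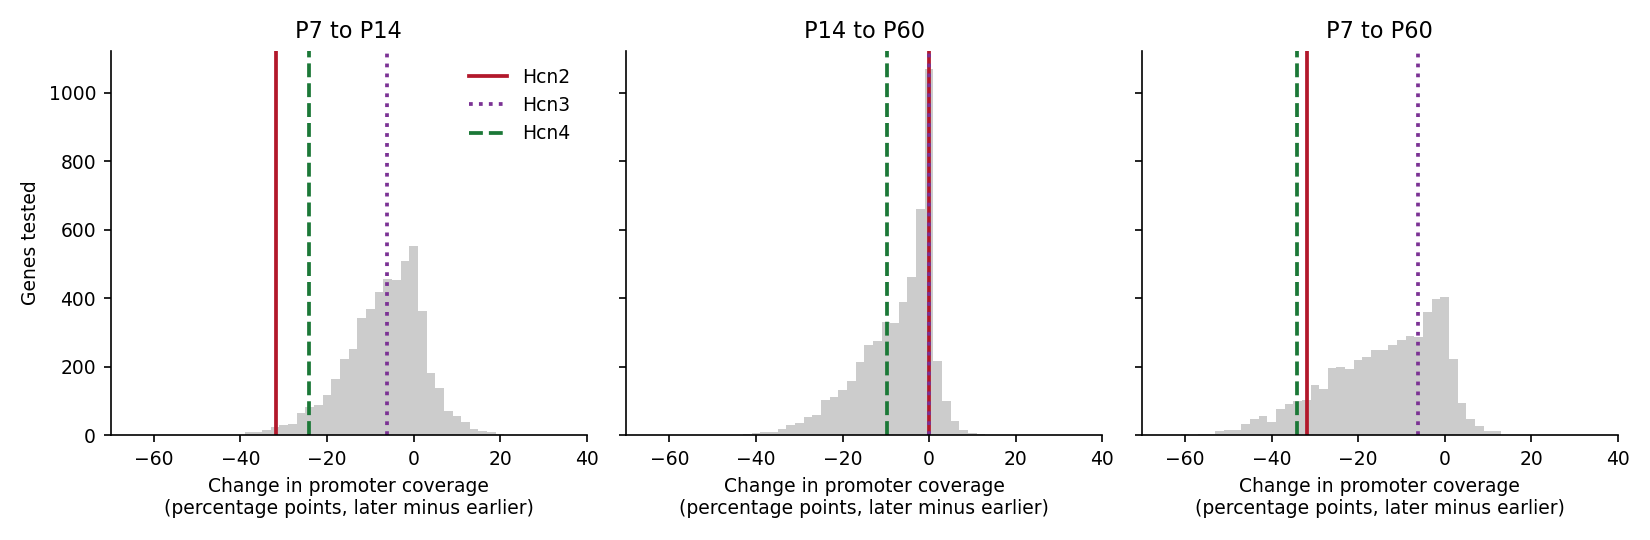
Change in mean promoter coverage (later minus earlier stage, percentage points) for the 5120 genes tested, as grey histograms with bins of 2 points, and for the 3 HCN genes as coloured lines. Hcn2 (-31.8) and Hcn4 (-24.3) lie in the left tail from P7 to P14, Hcn3 (-6.22) lies near the median, and from P14 to P60 Hcn2 and Hcn3 are both at 0.

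The presence of the Hcn4 peaks followed how much of the genome each list covered, and that of the Hcn2 peaks did not fully. The 9 lists covered between 1.48 and 15.2 Mb. The 5 libraries with Hcn4 peaks were the 5 with the longest covered length, from 7.38 Mb (P7 replicate 3) to 15.2 Mb (P7 replicate 1), and the 4 without them covered 3.62 Mb or less. Among the 4 lists between 7.38 and 9.26 Mb, Hcn4 promoter coverage was 25.6% and 37.3% in the P7 libraries and 13.7% and 15.8% in the P14 libraries. Hcn2 had no peak in P14 replicates 2 and 3, which covered 7.79 and 9.26 Mb, but had peaks covering 30.4% of its window in P7 replicate 3, which covered 7.38 Mb. All 3 P60 lists covered 3.61 Mb or less, so for P60 the stage and the extent of the list cannot be told apart. The −log10 q of the 19 HCN peaks ran from 1.19 to 5.54, above that of 2.7% to 84.4% of the peaks in their own lists. When the strongest peaks of every list were kept to 1 common covered length, no HCN gene kept a peak in any library, P7 included.

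**Figure D4:**
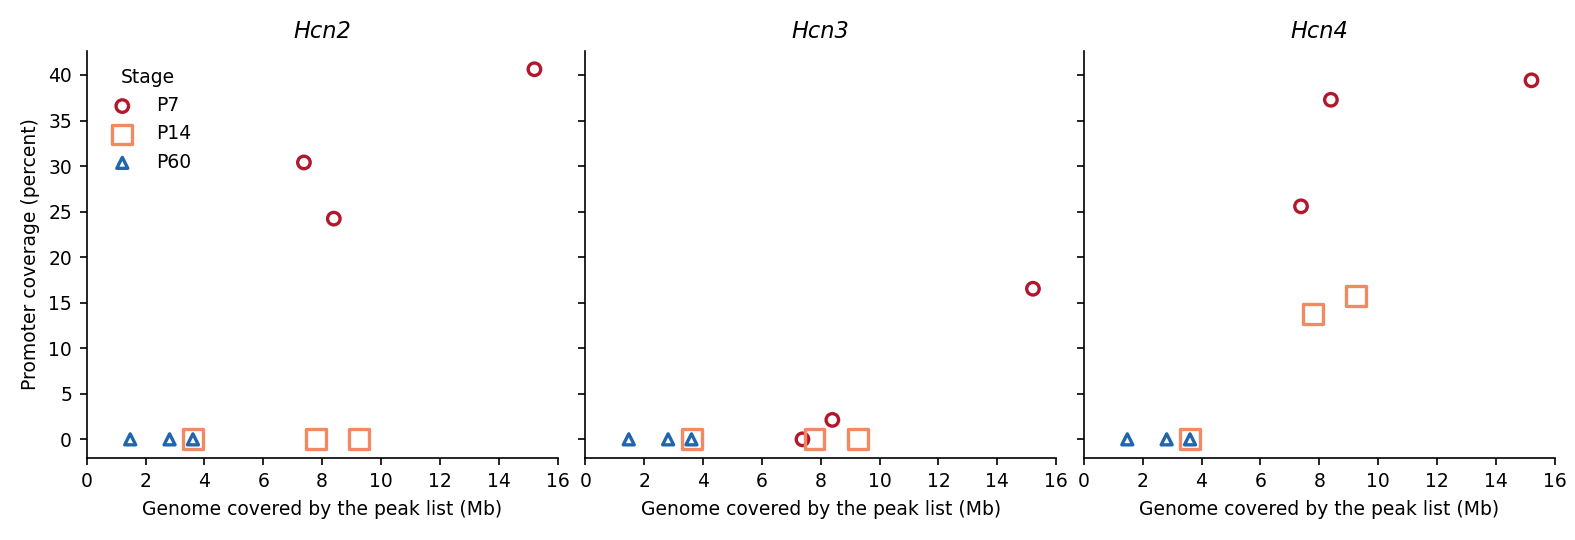
Promoter coverage of each HCN gene against the length of genome under all peaks of the library's list (Mb), with 1 symbol per library, circles for P7, squares for P14 and triangles for P60. At like list sizes of 7.38 to 9.26 Mb, Hcn2 is above 0 in P7 libraries only, Hcn4 is higher in the P7 than in the P14 libraries, and all P60 libraries lie at 3.61 Mb or less and at 0.

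The starts of Hcn2 and Hcn4 were rich in CpG and that of Hcn3 was not. Counted over 3 kb on each side of the 5′ start, Hcn4 held 44.7 CpG per kb, Hcn2 39.2 and Hcn3 21.8, against a median of 18 over all protein-coding genes and 22.5 over the genes tested. Of the genes tested, 95.3% held fewer CpG than Hcn4, 90.8% fewer than Hcn2 and 46.6% fewer than Hcn3, the same order as their P7 coverage. This order over 3 genes is a description.

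Few neighbouring promoters had a peak, as over the genome, where 6720 of 21938 protein-coding genes had one in 1 or more libraries. The 10 protein-coding genes within 50 kb of Hcn2 included 7 with no promoter peak in any library, among them Bsg, which encodes the glycoprotein basigin and lies 4665 bases from Hcn2. Polrmt, the mitochondrial RNA polymerase gene that lies 15 bases beyond the end of Hcn2, had a peak in P7 replicate 1 alone, which was the one over the last exon of Hcn2. Fstl3, a follistatin-like gene, had peaks in 3 libraries (mean coverage 7.51% at P7 and 3.83% at P14) and Prss57, a serine protease gene, in 1. Near Hcn3, 7 of 8 neighbours had no promoter peak, including Pklr, the pyruvate kinase gene that overlaps the Hcn3 gene, and Clk2, a splicing kinase gene. The exception was Mtx1, a gene for a mitochondrial import protein, with mean coverage of 32.3% at P7, 25.8% at P14 and 5.84% at P60. The 1 neighbour of Hcn4, Neo1, which encodes the receptor neogenin, had a peak in 1 P60 library and none at P7 or P14. In the P7 libraries the nearest peak away from the gene lay 40.9 to 184 kb from Hcn2 and 55.8 to 333 kb from Hcn4.

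Other genes that act with HCN channels were taken from fixed lists. Of 8 genes for HCN channel partners, 6 had no peak in any library and 2 were tested. Pex5l, which encodes the HCN-binding protein TRIP8b, fell from 19.4% ± 9.68 at P7 to 0% at P60 (n = 3, limma, adjusted p = 0.00895), with 11.2% ± 2.45 at P14. Nedd4l, a ubiquitin ligase gene, had coverage of 2.56% at P14 only and passed in no comparison. Of the cyclic nucleotide-gated channel genes listed, 1 was tested and did not pass in any comparison, Cnga3, a cone photoreceptor channel gene, at 12.7%, 7.19% and 7.24% at P7, P14 and P60. Of the 10 adenylyl cyclases, which make cyclic AMP, 6 were tested, 3 fell from P7 to P60, beside 45.8% of all genes tested, and none passed from P7 to P14. These were Adcy2 (38.4% to 1.08%, limma, adjusted p = 0.00314), Adcy4 (23.5% to 1.56%, adjusted p = 0.00565) and Adcy8 (23.4% to 0%, adjusted p = 0.0225). At P14 their means were 26.2%, 10.4% and 10.6%.

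Promoter coverage at cell type marker genes is given for the same stages, and whether it bears on the HCN values was not tested. The P60 lists covered 3.61 Mb or less, so at P60 stage and list extent cannot be told apart here either. Mean promoter coverage over the 6 inhibitory interneuron markers ranged from 12.8% to 29% over the P7 libraries, from 5.66% to 24.7% over the P14 libraries and from 0% to 1.07% over the P60 libraries, and 4 of 6 were called lower from P7 to P60 (Gad2, Pax2, Slc6a5 and Gad1, all at 0% at P60). Calls in this and the following lists stand beside the 45.8% of all genes tested that were called lower from P7 to P60. Over the 6 oligodendrocyte lineage markers it ranged from 18.4% to 25.9% at P7, 9.77% to 22.1% at P14 and 0.472% to 6.36% at P60, with Pdgfra, Sox10 and Olig1 called lower and the myelin gene Mbp at 0 throughout. Over the 6 Purkinje cell markers it ranged from 9.99% to 21.4%, 1.86% to 7.58% and 0.639% to 1.97%, with Rora, Foxp2 and Skor2 called lower. Over the 5 astrocyte and Bergmann glia markers the ranges were 3.36% to 9.84%, 3.01% to 5.96% and 0% to 0.47%, with Gdf10 called lower. Over the 5 microglia markers they were 1.51% to 3.93%, 0.953% to 3.25% and 0% to 2.52%, with none called. Over the 6 granule neuron markers the range was 0% to 2.52% at P7 and 0% at P14 and P60. Among all these markers, Rora, the gene of a nuclear receptor needed by Purkinje cells, was the one called lower from P7 to P14 (30.5% to 0%, limma, adjusted p = 0.00272). Of all genes tested, 11.7% were called lower from P7 to P14.

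The genes most like each HCN gene were found by the mean absolute difference in promoter coverage over the 9 libraries. For Hcn2 these were Lingo1, a gene for a neuronal surface protein, at 0.405 points, Adora1, the adenosine A1 receptor gene, at 0.444 points, and Itga3, an integrin gene, at 0.559 points. Each of them had coverage in the P7 libraries only, between 21.9% and 41.8%. For Hcn4 they were Smpd5, Chadl and C77080, at 1.43, 1.6 and 1.67 points, each with coverage in all 3 P7 libraries and P14 replicates 2 and 3, and none elsewhere. For Hcn3 they were Shcbp1l, Specc1 and Hkdc1, at 0.00185, 0.05 and 0.124 points, each with coverage in P7 replicates 1 and 2 alone. The patterns themselves were not rare: 324 of the tested genes (6.33%) had a promoter peak in all 3 P7 libraries and no later one, as at Hcn2, 272 (5.31%) had one in all P7, 2 P14 and no P60 libraries, as at Hcn4, and 348 (6.8%) had one in 2 P7 libraries alone, as at Hcn3.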

How the data were processed

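H3K27me3 ChIP-seq was performed on mouse cerebellum. Per the submitters' notes, the read steps were FastQC, trimming by Trimmomatic 0.38, then alignment to mm10 with STAR 2.7.2b and broad peak calling with MACS2 2.1, 1 list per library, and bedtools 2.25.0 and DESeq2 1.36.0 were also used by the authors. No input library is named. The lists deposited by the authors give each peak's fold enrichment (a ratio to the library's own background), −log10 p and −log10 q. Fold enrichment and −log10 q were used only within a list. The lowest −log10 q was near 1.00, so weaker peaks than the authors' stated threshold are included. Read depth is unknown, so values carry no counting interval.

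Coverage was the percent of the most covered TSS window (3 kb each side) and of the gene body under peaks, for 21938 GENCODE vM21 protein-coding genes. Genes touched in 2 or more of the 9 libraries were compared with limma 3.58.1 (R 4.3.3, trend and robust variance, Benjamini-Hochberg over all genes tested, threshold 0.05) with all 9 libraries in 1 fit, after tests on simulated data. Single values were compared by exact permutation. Python 3.11.15, numpy 2.4.6, pandas 2.3.3 and matplotlib 3.10.9 were used. P-values measure the spread between libraries. The labels do not say whether the same replicate number pairs libraries across stages. Correlations of their deviations ran from -0.216 to 0.249 for the same number and from -0.265 to 0.214 for different numbers. Alternatives changed the peak threshold and width, the window, the filter, the scale, the list size and the libraries. Named genes were the HCN genes, protein-coding genes within 50 kb, the 3 genes nearest in coverage to each, and called genes of fixed lists. Some genes covered by this rule are not reported here. The members, lists and tests were chosen with earlier results of these data known. The RefSeq sequence table has no entry matched for Hcn3.

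The 5 lists of the knockout experiment (Kdm6b-WT and Kdm6b-cKO) were not used here. Between 25 and 74 peaks of each lie past the ends of GRCm38 chromosomes, against 0 in every list of the age series. The submitters' notes name mm10, and which build these lists use was not settled.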

Additional observations from a re-analysis of the deposited data

How the results depend on the processing

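Over the alternatives, 268 of 297 values for the 3 HCN genes kept their side of the threshold, 21 kept the direction but lost the call, 8 gained one, and none reversed. The causes of these changes were not tested. The 268 include P14 to P60 values of Hcn2 and Hcn3, which were 0 at both stages and could not move. These were 21 and 14 for promoter coverage, and 17 and 11 for gene body coverage. The 268 also include values without a call in the main fit. Where a gene had too few peaks for the limma fit, that limma value is not among the 297. With peaks of −log10 q of 2 or more, Hcn4 promoter coverage changed by -18 points from P7 to P14 (limma, adjusted p = 0.093) and Hcn2 gene body coverage by -7.55 points (adjusted p = 0.00916). With −log10 q of 4 or more, Hcn2 promoter coverage changed by -19.1 points from P7 to both later stages (limma, adjusted p = 0.213 and 0.157) and Hcn2 gene body coverage by -5.08 points from P7 to P60 (adjusted p = 0.184), with all 3 calls lost, and the exact p over 3 stages was 0.25 for Hcn2 and 1 for Hcn4, where Hcn4 and Hcn3 had too few peaks for the fit. With the same number of peaks per list, gene body coverage from P7 to P14 was called at Hcn2 (-7.55) and Hcn4 (-3.03). With the same covered length no HCN gene had a peak, so no value could be given. A 1 kb window gave -26.4 points for Hcn4 from P7 to P14, without a call. On the arcsine scale, that change (-0.359) lost its call and the Hcn2 gene body change (-0.305) gained one. Without the libraries of median peak width under 200 bp, which are P60 replicates 1 and 2, the calls were lost for promoter coverage of Hcn4 from P7 to P14 (-24.3) and of Hcn2 (-31.8) and Hcn4 (-34.1) from P7 to P60, and for gene body coverage of Hcn2 (-9.49) and Hcn4 (-4.004). The lone P60 library is then assumed to vary like the other stages. The exact p over 3 stages was then 0.0571 for Hcn2 promoter and Hcn4 gene body coverage and 0.2 for Hcn2 gene body coverage. Leaving out 1 library at a time, promoter coverage changed by -28.5 to -19.3 points at Hcn4 from P7 to P14, and by -9.33 to -6.22 points at Hcn3 from P7 to P60. Gene body coverage changed by -11.7 to -6.26 points at Hcn2 from P7 to both later stages, with the call to P14 gained without P7 replicate 1 (limma, adjusted p = 0.00302) and without P7 replicate 2 (0.0287), and at Hcn4 by -3.49 to -2.31 points to P14, with the call gained without P7 replicate 3 (adjusted p = 0.0375), and by -4.47 to -3.29 points to P60. The exact p ran from 0.0357 to 0.464 for Hcn3 and from 0.0357 to 0.0714 for Hcn2 gene body coverage.

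With the replicate number as a block (replicate block), the changes were the same and calls were lost at Hcn4 for promoter coverage from P7 to P14 (-24.3 points, limma, adjusted p = 0.0586) and for gene body coverage from P7 to P60 at Hcn2 (-9.49, adjusted p = 0.0633) and Hcn4 (-4.004, adjusted p = 0.0544), and no other call of the HCN genes changed. The labels do not say whether the numbers pair the libraries.

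Counts of all genes called lower moved more. For promoter coverage from P7 to P14 (597), the count was 91 with −log10 q of 4 or more, 101 with the same covered length, 233 with the replicate block, 133 without P60 replicates 1 and 2, and 174 (without P14 replicate 2) to 978 (without P7 replicate 3) with 1 library left out. From P14 to P60 (106), it was 339 with −log10 q of 2 or more, 277 with peaks of 300 bp or more, 45 with the same number of peaks, 500 with a 1 kb window, 204 with the 5′ TSS alone, 431 with 10% covered in 2 libraries, 12 with genes touched in 1 library, 959 on the arcsine scale, 0 to 1107 (without P14 replicate 1) with 1 library left out, and 0 with −log10 q of 4 or more, a 5 kb window, the replicate block and without P60 replicates 1 and 2. In the settings with 0, between 205 and 1326 genes passed limma at an unadjusted p under 0.05. From P7 to P60 (2347), it was 421 with −log10 q of 4 or more, 250 with the same covered length and 0 without P60 replicates 1 and 2 (1232 unadjusted). For gene body coverage from P7 to P14 (360), it was 79 with −log10 q of 4 or more, 74 with the same covered length, 174 with the 10% filter, 142 with the replicate block, 76 without P60 replicates 1 and 2, and 150 to 666 with 1 library left out. From P14 to P60 (36), it was 68 and 23 with −log10 q of 2 and 4 or more, 115 with the same number of peaks, 74 with the same covered length, 164 with the 10% filter, 554 on the arcsine scale, 0 to 545 with 1 library left out, and 0 with the replicate block and without P60 replicates 1 and 2 (175 to 916 unadjusted where 0). From P7 to P60 (1604), it was 374 with −log10 q of 4 or more, 167 with the same covered length, 898 with the 10% filter, 588 with the replicate block, 479 to 1988 with 1 library left out, and 0 without P60 replicates 1 and 2 (914 unadjusted). Read depth is unknown, and a shorter list can leave a weak peak unlisted.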
